A study of Mus musculus with 224 samples.

Results

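Adipokines are proteins that fat tissue releases into the blood. Measured here were the transcripts of 7 of them in mice on fatty or ordinary food: Lep, Adipoq, Retn, Rbp4, Cfd, Nampt and Rarres2. The 7 genes were chosen by name, and each was found in the tables through its Ensembl identifier. All 7 were among the 16542 genes of the visceral adipose table and the 13637 genes of the soleus muscle table, and 6 of them were among the 12611 genes of the liver table, which held no entry for Lep. All 7 are annotated as protein-coding genes on GRCm38, with Lep at chr6:29060220-29073877, Adipoq at chr16:23146536-23158028, Retn at chr8:3655770-3660110, Rbp4 at chr19:38116629-38125281, Cfd at chr10:79890853-79892655, Nampt at chr12:32819545-32853349 and Rarres2 at chr6:48569696-48572789. Rbp4 and Rarres2 lie on the minus strand and the other 5 on the plus strand.

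Lep encodes leptin, a hormone whose transcript rises as adipocytes fill with fat and which acts on the brain to restrain feeding. Adipoq encodes adiponectin, an abundant adipocyte hormone that acts through AdipoR1 and AdipoR2 and is linked to insulin sensitivity. Retn encodes resistin, which in mice is made mainly by adipocytes. Rbp4 encodes the plasma carrier of retinol, made chiefly by hepatocytes and also by adipocytes. Cfd encodes adipsin (complement factor D), the protease that cleaves factor B in the alternative complement pathway. Nampt encodes the rate-limiting enzyme of NAD salvage from nicotinamide, which is also found outside cells under the name visfatin. Rarres2 encodes chemerin, a secreted ligand of the receptor Cmklr1.

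The study fed 3 inbred strains, DBA/2J, BALB/cJ and C57Bl/6J, a diet rich in fat (HFD) or chow as the comparison (RC) and took liver, soleus and visceral fat at day 5, 13 or 33. This gives 18 groups of 4 animals, 72 in all, and the labels name no transgene, engineered deletion or drug for any of them. The labels give no sex, age, diet composition or fat depot. The strain here called DBA/2J is spelled DBA/2JJ in the sample labels. The series' design text names the last day as 13, whereas the sample labels give D33, and the sample labels were followed. Each table holds log2 CPM, read counts scaled to an effective library size, so a difference of 1 is a factor of 2. That size, worked out from the values, departs from the read total. In adipose it was 1.62e+07 against 2.21e+07 reads in 3RC201 and 5.09e+07 against 4.15e+07 reads in 3HF203. How far this scaling enters the levels was not tested. The 3 tables were normalised separately, and no level was tested across them. Library totals were 1.98e+07 to 4.68e+07 reads in adipose, 1.81e+07 to 3.2e+07 in liver and 1.99e+07 to 3.34e+07 in muscle, so the adipokines of fat rested on many reads in every library and the spread between animals, not counting error, set the precision there.

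The adipose libraries differed widely in what they contained. In 2 libraries from BALB/cJ animals on HFD (3HF201, at day 5, and 3HF208, at day 33), pancreas markers summed to 446478 and 625255 CPM, and Lep stood at 0.20 and 0.38 log2 CPM. These 2 libraries were left out, which left 70. All 15 adipocyte markers on a list that holds none of the 7 adipokines were measured in the 70, and their sum ran between 9093 and 80274 CPM. A list of 14 B and T cell markers divided the 70 libraries into 30 with a sum of 11.6 to 70.7 CPM, called lymphoid-low, and 40 with a sum of 924 to 3990 CPM, called lymphoid-high. The adipocyte sum was 33482 to 80274 CPM (median 51440) in the lymphoid-low libraries and 9093 to 45796 CPM (median 17565) in the lymphoid-high ones. Both classes held both diets and every strain, with 8 HFD and 9 RC lymphoid-low libraries of DBA/2J, 3 and 4 of BALB/cJ, and 4 and 2 of C57Bl/6J. In such bulk samples, fewer adipocytes and less RNA per adipocyte cannot be told apart.

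The start regions of the pair of genes that headed the diet and the composition results are shown here. Whether these sequences bear on how the adipokines moved together between libraries was not tested. Each window runs from 250 bases before to 50 bases after the RefSeq start on GRCm38.p6, 5′ to 3′ on the gene's plus strand. Lep is at chr6:29059971-29060270 and Adipoq at chr16:23146286-23146585. Capitals mark TTGCGCAA, the palindromic form of the C/EBP consensus, in Lep, and CCAAT or its reverse complement ATTGG in Adipoq.
Lep: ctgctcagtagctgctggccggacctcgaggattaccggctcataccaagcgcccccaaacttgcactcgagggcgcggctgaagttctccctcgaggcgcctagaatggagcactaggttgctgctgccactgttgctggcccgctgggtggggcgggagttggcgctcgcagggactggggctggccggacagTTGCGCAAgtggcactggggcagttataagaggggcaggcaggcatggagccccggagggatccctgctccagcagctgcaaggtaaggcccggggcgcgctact
Adipoq: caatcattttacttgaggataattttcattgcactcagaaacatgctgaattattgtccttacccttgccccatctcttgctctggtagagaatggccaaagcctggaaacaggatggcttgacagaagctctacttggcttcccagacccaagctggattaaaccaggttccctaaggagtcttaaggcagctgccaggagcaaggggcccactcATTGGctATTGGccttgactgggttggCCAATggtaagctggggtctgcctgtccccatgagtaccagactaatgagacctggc
These were 2 of 4 motifs searched on both strands, and no match of one overlapped a match of another in these windows. TTGCGCAA began 55 bases before the Lep start and was present in 60 of 32851 start windows of the same length (0.183%). CCAAT was in 37.4% of the windows. The GC box, GGGCGG, was in 35.7%, and lay 98 bases before the Lep start. The TATA box, searched as TATAAA, was in 13.6%. Of the other members with a RefSeq window, Retn and Cfd held none of the 4 motifs, Nampt held 5 GC boxes, and Rbp4 had 2 annotated starts, of which the one farther inside the gene held a TATA box and 2 GC boxes and the other held CCAAT. Rarres2 was not matched to a window. A match is a string of letters in the window and says nothing of binding.

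Per length of annotated exons, Cfd and Adipoq were the most abundant adipokines of visceral fat. That length merges all annotated exons of a gene and can exceed the length of a single transcript, which lowers the value. It was 2656 bases for Rarres2 and 1579 for Retn. The mean level of Cfd in RPKM (CPM divided by the exon length in kilobases) was 3082 on HFD and 3003 on RC, and that of Adipoq was 1873 on HFD and 1838 on RC (n = 34 and 36 animals). Retn averaged 299 RPKM on HFD and 272 on RC, and Lep averaged 196 on HFD and 143 on RC. Rarres2 averaged 180 RPKM on HFD and 137 on RC, Rbp4 149 on HFD and 199 on RC, and Nampt 28.4 on HFD and 33.8 on RC. The spread between animals was wide, at 603 to 8834 RPKM for Cfd and 403 to 4637 RPKM for Adipoq, so Cfd overlapped Adipoq, and Retn, Lep, Rarres2 and Rbp4 overlapped one another. Nampt, at 13.1 to 97.0 RPKM, had the lowest mean of the 7. The order shifted with strain: Lep averaged 245 ± 128 RPKM in DBA/2J (n = 24) and Retn 207 ± 146, while in C57Bl/6J Retn averaged 348 ± 200 RPKM and Lep 131 ± 112 (SD, n = 24).

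**Figure D1:**
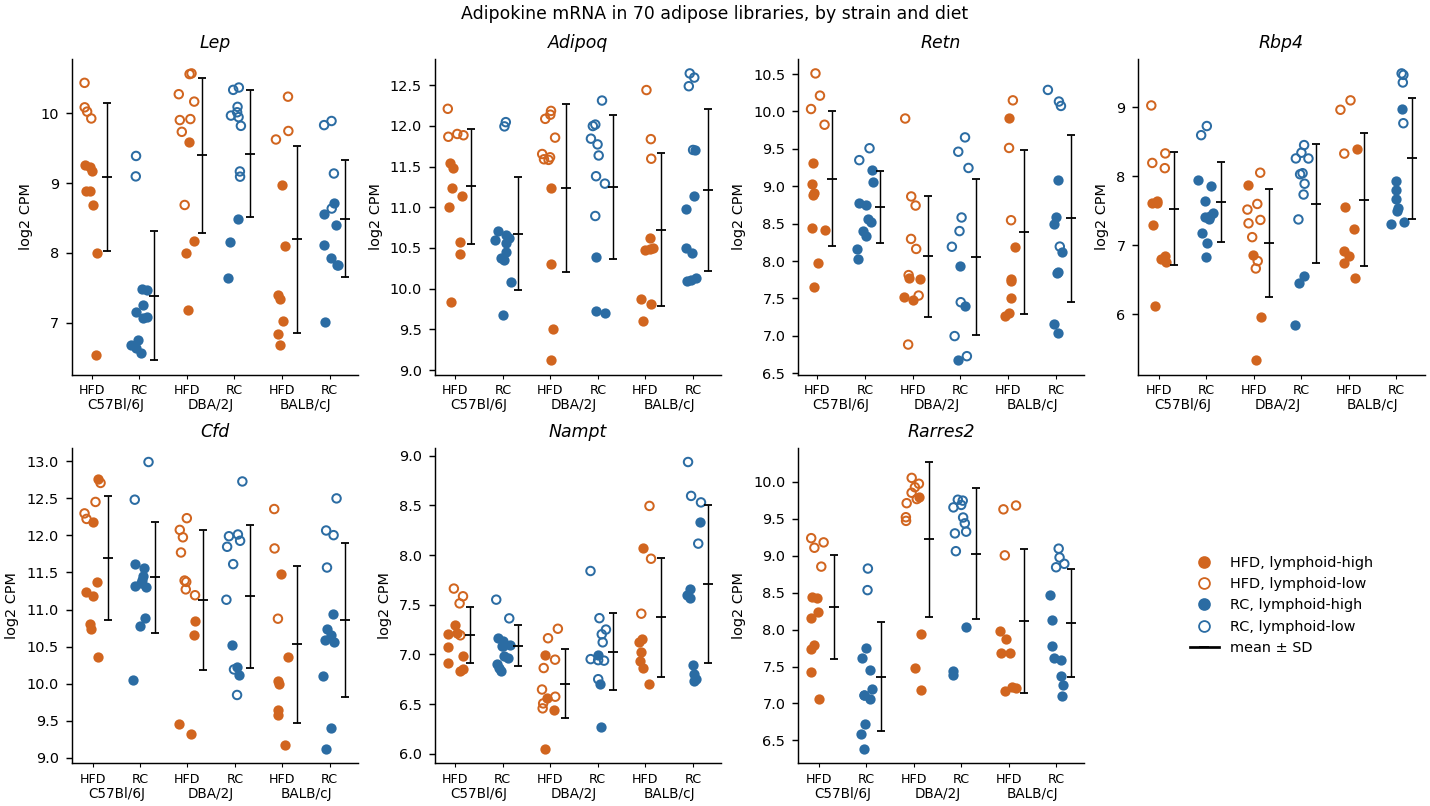
Level of each adipokine in visceral fat, in log2 CPM, with 1 point per animal by strain and diet; open points are lymphoid-low libraries, filled points lymphoid-high ones, and bars are means ± SD. For Lep, Adipoq and Rarres2 the open points lie above most filled points of the same strain and diet, and in C57Bl/6J the Lep mean is 9.09 on HFD against 7.39 on RC.

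The adipokines were higher in the libraries with more adipocyte marker RNA. Lep averaged 9.82 ± 0.52 log2 CPM in the 30 lymphoid-low libraries and 7.82 ± 0.87 in the 40 lymphoid-high ones (SD). Adipoq averaged 11.90 ± 0.39 in the lymphoid-low libraries and 10.44 ± 0.59 in the lymphoid-high ones, and Rarres2 9.39 ± 0.40 and 7.59 ± 0.61. Nampt differed least between the classes, at 7.39 and 7.02. These classes were defined from the libraries and not by the study, so no test was made between them.

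Within each class, adipokines were compared animal by animal as deviations from the mean of their strain and diet, with 70 relations computed in all, 35 in each class. In lymphoid-high libraries (n = 40) Adipoq had a Pearson r of 0.94 with the log2 adipocyte sum, Rarres2 0.83, Lep 0.72, Nampt 0.70, Cfd 0.69, Retn 0.66 and Rbp4 0.65. Spearman's rho for these ran from 0.60 (Nampt) to 0.94 (Adipoq), with adjusted permutation p of at most 0.0011 for r and 0.001 for rho. Without the 2 libraries farthest from the median of the adipokine, r ran from 0.57 (Nampt) to 0.92 (Adipoq). In lymphoid-low libraries (n = 30) r was 0.88 for Adipoq, 0.80 for Retn, 0.70 for Lep, 0.69 for Cfd and 0.68 for Rbp4, with rho of 0.61 to 0.87, adjusted p of at most 0.00058 for r and 0.0029 for rho, and r of 0.60 to 0.81 without the 2 farthest libraries. There r was 0.35 for Nampt (adjusted p = 0.15) and 0.17 for Rarres2 (0.48), which did not pass. Against the B and T cell sum r was between -0.58 (Retn) and -0.79 (Adipoq) in lymphoid-high libraries. In lymphoid-low ones Lep (r = -0.43, adjusted permutation p = 0.044) and Retn (-0.47, 0.024) passed. The other adipokines did not pass there, with r from -0.39 (Adipoq, 0.063) to 0.10 (Rarres2). Among the 21 pairs of adipokines, 20 were positively related in lymphoid-high libraries with r between 0.35 and 0.87, and the pair that did not pass was Lep with Cfd (r = 0.34, adjusted permutation p = 0.10). In lymphoid-low libraries 11 of 21 pairs passed. The closest there were Adipoq with Retn (r = 0.86, rho = 0.86), Adipoq with Cfd (r = 0.85) and Retn with Cfd (r = 0.82). The animals share library preparation and composition, so these values describe how the transcripts vary together.

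**Figure D2:**
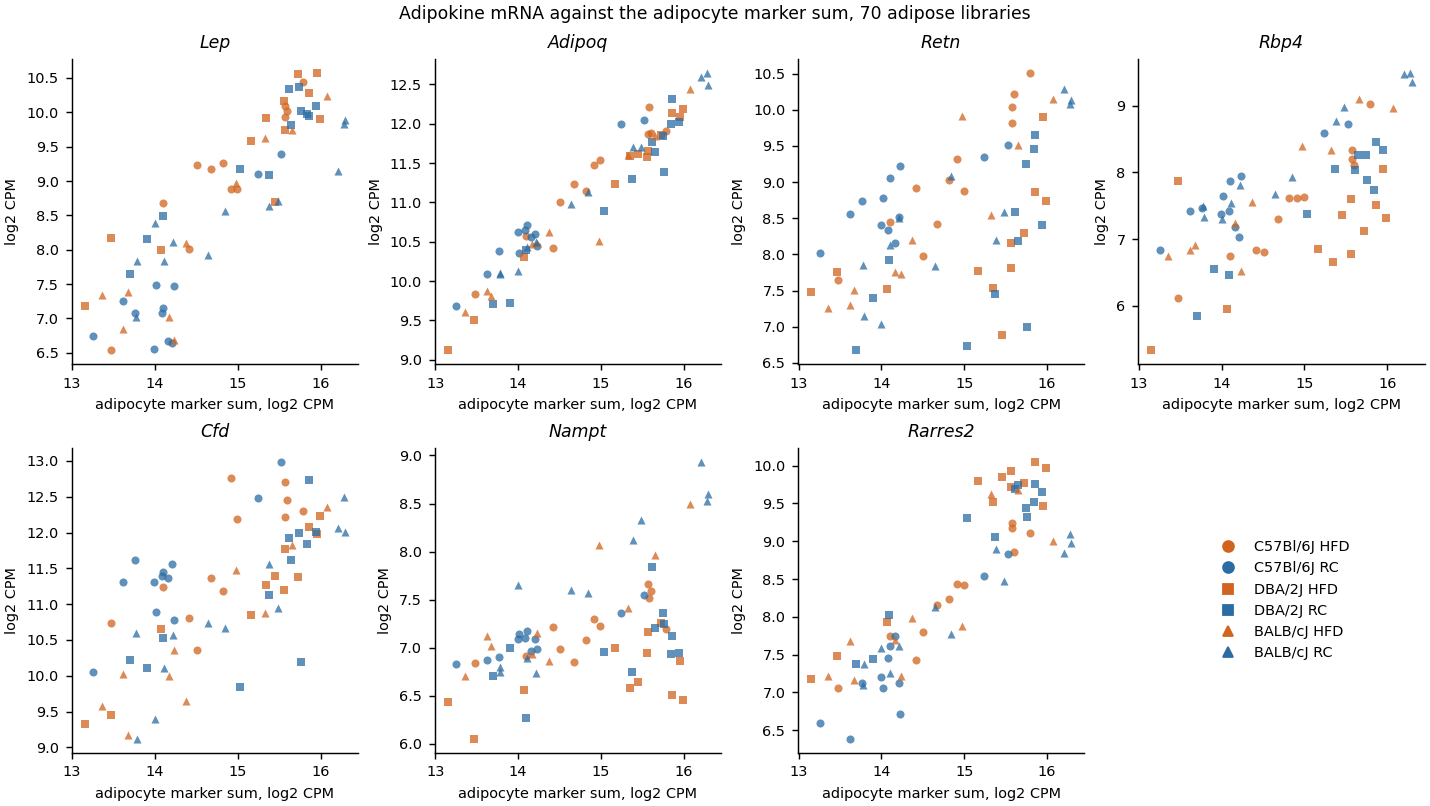
Level of each adipokine in log2 CPM (vertical) against the log2 summed CPM of 15 adipocyte markers (horizontal) in 70 visceral fat libraries; colour gives diet and shape gives strain. Adipoq lies close to a line, with r of 0.88 and 0.94 within the 2 lymphoid classes. In lymphoid-high libraries on RC the log2 ratio of Lep to the adipocyte sum averaged -6.93 in C57Bl/6J, -6.31 in BALB/cJ and -5.80 in DBA/2J. C57Bl/6J and BALB/cJ overlapped there, and so did BALB/cJ (-6.77 to -5.60) and DBA/2J (-6.06 to -5.60, n = 3). In lymphoid-low libraries on RC the ratio averaged -6.14 in C57Bl/6J (n = 2), -6.66 in BALB/cJ and -5.78 in DBA/2J. C57Bl/6J lay within the DBA/2J range of -6.28 to -5.28 in these libraries.

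Over all strains and days, HFD moved none of the 7 adipokines in fat past the threshold when composition was left as it was. The test was limma over all 16540 tested genes with Benjamini-Hochberg adjustment, two-sided, at an adjusted p of 0.05, and 3.59% of genes passed it. Lep differed by 0.44 ± 0.23 (log2 HFD minus RC, ± SE, limma adjusted p = 0.33), Rarres2 by 0.37 ± 0.18 (0.29), Rbp4 by -0.43 ± 0.19 (0.23) and Nampt by -0.18 ± 0.08 (0.24). The other 3 lay within 0.10 of 0, with Adipoq at 0.02, Retn at 0.06 and Cfd at -0.03. At an unadjusted p of 0.05, 3 of the 7 passed, against 2747 of all 16540 genes. Limma voom on the recovered reads also called 0 of the 7.

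Averaged over the days and with no covariate, Lep in C57Bl/6J was the one adipokine that passed for diet within a strain. At day 5 its level was 8.01, 8.88, 9.93 and 10.03 log2 CPM in the HFD animals and 6.64, 6.67, 7.26 and 7.46 in the RC animals, with no overlap. At day 13 it was 6.54, 8.69, 8.88 and 10.09 on HFD and 7.08, 7.16, 7.48 and 9.10 on RC, so the lowest animal of the 8 was on HFD. At day 33 it was 9.18, 9.23, 9.26 and 10.44 on HFD and 6.56, 6.75, 7.07 and 9.39 on RC. The RC animals at 9.10 and 9.39 were both lymphoid-low, as were the HFD animals at 9.93, 10.03, 10.09 and 10.44.

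Averaged over the days, Lep in C57Bl/6J had 666 ± 380 CPM on HFD (SD, n = 12) and 212 ± 190 CPM on RC (n = 12). The log2 difference was 1.71 ± 0.39 (limma adjusted p = 0.032), and 0.236% of genes passed in this strain. Among lymphoid-high libraries Lep stood at 6.54 to 9.26 log2 CPM on HFD (median 8.88, n = 8) and 6.56 to 7.48 on RC (median 7.08, n = 10), and among lymphoid-low ones at 9.93 to 10.44 on HFD (n = 4) and 9.10 and 9.39 on RC. Fitted within a class, the difference was 1.57 ± 0.32 in lymphoid-high libraries (adjusted p = 0.01) and 0.71 ± 0.38 in lymphoid-low ones (0.46). In C57Bl/6J none of the 15 adipocyte markers passed the same test, with a median difference of 0.60, and none of the 14 B and T cell markers did, with a median of -1.20. With the adipocyte sum as a covariate the Lep difference was 0.92 ± 0.18 (adjusted p = 0.00096), and with a term for lymphoid class 1.42 ± 0.23 (adjusted p = 0.00013). The call was lost, with the difference the same, when only the animals of C57Bl/6J were fitted (adjusted p = 0.098) and when the 2 islet libraries, both from BALB/cJ, were kept in the fit (0.64). Leaving out any one of 13 of the 70 animals lost the call made without a covariate (1HF209, 1HF225, 1HF231, 1HF250, 1HF252, 1RC210, 1RC211, 1RC226, 1RC228, 1RC229, 1RC235, 1RC248 and 1RC252), with the adjusted p at 0.127 and the difference at 1.54 without 1HF231.

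The other strains gave no such value for Lep. In DBA/2J Lep averaged 9.40 ± 1.11 log2 CPM on HFD (SD, n = 12) and 9.43 ± 0.91 on RC (n = 12). In BALB/cJ it averaged 8.20 ± 1.34 on HFD (n = 10) and 8.49 ± 0.84 on RC (n = 12). The classes of BALB/cJ differed in the log2 ratio of Lep to the adipocyte sum. In lymphoid-low libraries it was -5.91 to -5.70 on HFD (mean -5.81, n = 3) and -7.07 to -6.40 on RC (mean -6.66, n = 4). In lymphoid-high libraries the means lay the other way, at -6.58 on HFD (n = 7) and -6.31 on RC (n = 8), with overlap. Of the 7 adipokines, 0 passed for diet in DBA/2J, where 1.00% of genes did, and 0 in BALB/cJ, where 0% did (0 of 16540 genes by limma, with 1416 at an unadjusted p under 0.05). At that unadjusted level 1 adipokine passed in each of these strains, against 1773 genes in DBA/2J and 1416 in BALB/cJ. Voom called 0 adipokines in each strain. The diet effect on Lep in BALB/cJ minus that in C57Bl/6J was -2.06 ± 0.57 (adjusted p = 0.27), and in DBA/2J minus C57Bl/6J -1.74 ± 0.55 (0.56). The F test of a difference in diet effect between the 3 strains passed for 0 of the 7, against 0.0967% of all genes. Unadjusted p was under 0.05 for 2 of the 7 and for 861 genes. With a lymphoid class term this F test gave an adjusted p of 0.0085 for Lep, and with the adipocyte sum as a covariate one of 0.135. With the class term the diet effect on Lep in BALB/cJ minus that in C57Bl/6J was -1.68 ± 0.34 (0.0061).

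Rarres2, the chemerin gene, did not pass for diet within a strain without a covariate. In C57Bl/6J it had 133 to 604 CPM on HFD (median 323) and 83.6 to 454 CPM on RC (median 143), and the groups overlapped. The log2 difference was 0.94 ± 0.31 (adjusted p = 0.26). With the adipocyte sum as a covariate the value over all strains was 0.31 ± 0.06 (adjusted p = 0.00039).

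Rbp4 and Nampt did not pass within a strain either. In DBA/2J Rbp4 had 40.3 to 265 CPM on HFD (median 149) and 57.5 to 350 CPM on RC (median 249.4), and in BALB/cJ 91.9 to 549 CPM on HFD (median 170) and 158 to 720 CPM on RC (median 234). The ranges overlapped in both strains, and the log2 differences were -0.57 (adjusted p = 0.56) and -0.64 (0.63). Nampt in DBA/2J stood at 6.05 to 7.26 log2 CPM on HFD (median 6.61) and 6.27 to 7.84 on RC (median 6.98), a difference of -0.32 ± 0.14 (0.36).

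With the adipocyte sum as a covariate, 4 of the 7 adipokines passed over all strains and days, with 2 higher and 2 lower on HFD, and 19.1% of all genes passed in that fit. Lep was higher by 0.37 ± 0.10 (adjusted p = 0.0077), and Rarres2 was higher as given above. Rbp4 was lower, at -0.49 ± 0.09 (adjusted p = 9.5e-05), and Nampt was lower, at -0.20 ± 0.05 (0.0036). Adipoq, Retn and Cfd stood at -0.05, -0.00 and -0.10. Without a covariate none of the 15 markers of the sum passed for diet over all strains and days, with a median of -0.01. With the sum as a covariate, single markers of it passed. The 4 with the smallest p were Slc2a4 (-0.47, limma adjusted p = 0.0002), Lipe (-0.22, 0.00055), Aqp7 (0.26, 0.00057) and Pnpla2 (-0.31, 0.0013). A value from this fit therefore says how a transcript moved relative to the sum of those markers, which did not all move alike.

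By strain in that fit, Lep (0.92, as above) and Rbp4 (-0.75 ± 0.16, adjusted p = 0.0031) passed in C57Bl/6J, where 5.96% of genes did. Set against the adipocyte sum, Rbp4 in C57Bl/6J had a log2 ratio of -7.34 ± 0.23 on HFD (SD, n = 12) and -6.56 ± 0.31 on RC (n = 12), whereas its plain level was 7.53 ± 0.82 and 7.63 ± 0.58 log2 CPM. In DBA/2J Nampt passed (-0.29 ± 0.09, adjusted p = 0.034) and Rbp4 did not (-0.47, 0.053), against 6.89% of genes. In BALB/cJ 0 of the 7 passed against 1.43% of genes, and 2 of the 7 and 2624 genes had an unadjusted p under 0.05. Differences in diet effect between strains passed for 0 of the 7 in that fit, against 0.453% of genes. Unadjusted p was under 0.05 for 2 of the 7 and for 2478 genes.

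**Figure D3:**
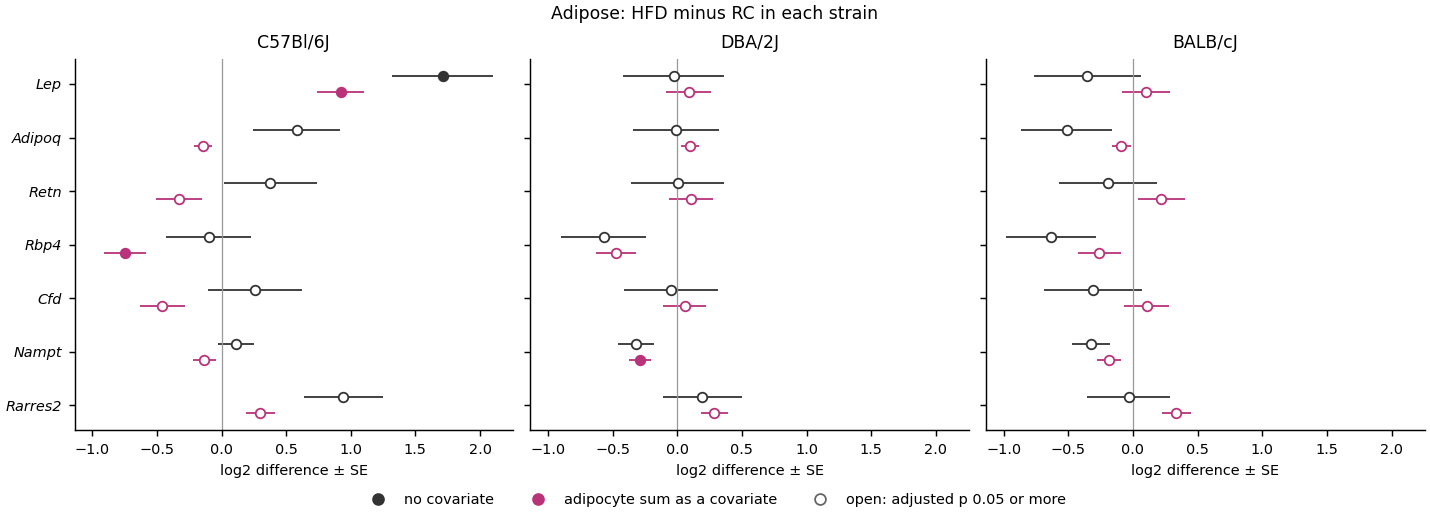
Log2 difference HFD minus RC (± SE) of each adipokine in visceral fat by strain, without a covariate and with the adipocyte sum as a covariate; filled points have an adjusted p under 0.05. Without a covariate the filled point is Lep of C57Bl/6J at 1.71, and with the covariate Lep (0.92) and Rbp4 (-0.75) of C57Bl/6J and Nampt of DBA/2J (-0.29) are filled.

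Day by day and without a covariate, the clearest diet difference in fat was Nampt in BALB/cJ at day 33. It stood at 6.71, 6.93 and 7.12 log2 CPM in the 3 HFD animals and 7.60, 8.12, 8.33 and 8.94 in the 4 RC animals, with no overlap. The difference was -1.32 ± 0.26 (adjusted p = 0.0055), and 1.81% of genes passed there. All 3 HFD libraries were lymphoid-high, whereas the RC libraries at 8.12 and 8.94 were lymphoid-low, and with a lymphoid class term the difference was -1.06 ± 0.19 (0.00082). The adipocyte sum did not overlap either, at 10484, 12588 and 18391 CPM in the HFD libraries and 25600, 42721, 45796 and 75525 CPM in the RC ones, and with it as a covariate the Nampt difference was -0.72 ± 0.18 and missed the threshold (0.06). Without the HFD animal 3HF259 it was -1.22 (adjusted p = 0.096) and without the RC animal 3RC209 it was -1.09 (0.083). The other 6 adipokines had lower mean levels on HFD in the same animals and did not pass, from -1.78 for Rbp4 (0.068) and -1.76 for Adipoq (0.071) to -1.06 for Rarres2 (0.15). An unadjusted p under 0.05 was found for 5 of the 7 and for 6580 of all 16540 genes. In the fit with the adipocyte sum these 6 lay between -0.16 (Rbp4) and 0.55 (Rarres2), none past the threshold. Without the RC animal 3RC211 Adipoq (-2.02, 0.029) and Rbp4 (-2.13, 0.024) passed as well.

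In the other 8 combinations of strain and day, 0 of the 7 adipokines passed without a covariate. Some passed with one, as counted in the section on processing. The share of all genes that passed by limma was 0% at days 5 and 13 in C57Bl/6J (1253 and 271 genes at an unadjusted p under 0.05). At day 33 there it was 0.0121% (529 genes at that unadjusted level). The share was 0.00605% at day 5, 0.0121% at day 13 and 0.846% at day 33 in DBA/2J. In BALB/cJ it was 0% at days 5 and 13 (355 and 1644 genes at an unadjusted p under 0.05). At an unadjusted p of 0.05 there were 2 adipokines in C57Bl/6J at day 5, 1 in C57Bl/6J at day 33 and 2 in BALB/cJ at day 13, and none in the other 5. For Lep in C57Bl/6J the difference was 2.20 ± 0.68 at day 5 (adjusted p = 0.52), 0.84 at day 13 and 2.08 ± 0.68 at day 33 (0.51). A difference in diet effect between days passed by limma for 0 of the 7 and 0% of all genes, with 1 of the 7 and 1322 genes at an unadjusted p under 0.05, and voom called 0 of the 7.

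Among chow-fed animals, Lep, Rarres2 and Nampt of fat differed between strains. Lep stood at 7.64 to 10.37 log2 CPM in DBA/2J (median 9.88), 7.01 to 9.89 in BALB/cJ (median 8.48) and 6.56 to 9.39 in C57Bl/6J (median 7.12), with 12 animals each. Rarres2 stood at 7.38 to 9.76 in DBA/2J (median 9.38), 7.10 to 9.10 in BALB/cJ (median 7.95) and 6.39 to 8.83 in C57Bl/6J (median 7.16). The ranges overlapped for both genes. DBA/2J minus C57Bl/6J was 2.04 ± 0.39 for Lep (adjusted p = 5.1e-05) and 1.66 ± 0.31 for Rarres2 (2.5e-05), and 2 of the 7 passed against 51.4% of all genes. In the same animals 13 of 15 adipocyte markers were higher in DBA/2J, with a median of 1.09, and 14 of 14 B and T cell markers were lower, with a median of -4.02. Within lymphoid-low libraries the difference was 0.57 ± 0.34 for Lep (0.29) and 0.85 ± 0.17 for Rarres2 (0.0015), and within lymphoid-high ones 1.09 ± 0.45 (0.13) and 0.60 ± 0.35 (0.30).

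BALB/cJ minus C57Bl/6J was 1.11 ± 0.39 for Lep (adjusted p = 0.044) and 0.62 ± 0.14 for Nampt (0.00074), so that 2 of the 7 passed against 16% of genes. That Lep call was lost without any one of 17 chow-fed animals, 9 of C57Bl/6J (1RC210, 1RC211, 1RC226, 1RC228, 1RC229, 1RC235, 1RC248, 1RC251 and 1RC252) and 8 of BALB/cJ (3RC201, 3RC203, 3RC208, 3RC209, 3RC228, 3RC252, 3RC255 and 3RC259), with an adjusted p of up to 0.088. Without 1RC256 Rarres2 passed too, at 0.87 (0.035). Within lymphoid-low libraries the Lep difference was 0.05 (0.95) and that of Nampt 1.12 (0.0047), and within lymphoid-high ones they were 1.06 (0.019) and 0.32 (0.20). BALB/cJ minus DBA/2J was 0.68 ± 0.14 for Nampt (0.00021) and -0.94 ± 0.31 for Rarres2 (0.021), again 2 of the 7, against 24.8% of genes. The Rarres2 call was lost without 2RC200 (0.051) or 2RC201 (0.056).

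Relative to the adipocyte markers the strains differed in more adipokines. With the adipocyte sum as a covariate all 7 passed for DBA/2J minus C57Bl/6J, 2 higher and 5 lower, against 21.6% of genes. Lep (0.86 ± 0.19, adjusted p = 0.00041) and Rarres2 (0.71 ± 0.12, 3.9e-06) were higher in DBA/2J, while Retn was lower by the most, at -1.72 ± 0.19 (8.4e-11), followed by Cfd at -1.33 ± 0.18 (3.8e-08) and Rbp4 at -0.99 ± 0.17 (7.2e-06). Adipoq changed sign, being 0.57 without the covariate (not past the threshold) and -0.51 ± 0.08 with it (2.2e-07). For BALB/cJ minus C57Bl/6J 4 of the 7 passed against 35.4% of genes. Nampt was higher (0.36 ± 0.09, 0.0015), and Cfd (-1.35 ± 0.17, 8e-09), Retn (-0.91 ± 0.18, 6.9e-05) and Adipoq (-0.24 ± 0.07, 0.0066) were lower. For BALB/cJ minus DBA/2J 6 of the 7 passed against 37.6% of genes. Rbp4 (0.93 ± 0.16, 3.8e-06), Retn (0.81 ± 0.17, 0.00018), Nampt (0.78 ± 0.09, 1.7e-10) and Adipoq (0.27 ± 0.07, 0.0017) were higher in BALB/cJ, and Rarres2 (-0.66 ± 0.11, 2.1e-06) and Lep (-0.60 ± 0.18, 0.0056) were lower. The 3 strain comparisons share their animals in pairs, and GRCm38, the build named in the submitters' processing notes, is the genome of C57BL/6J. How far sequence differences between strains enter these values was not tested.

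**Figure D4:**
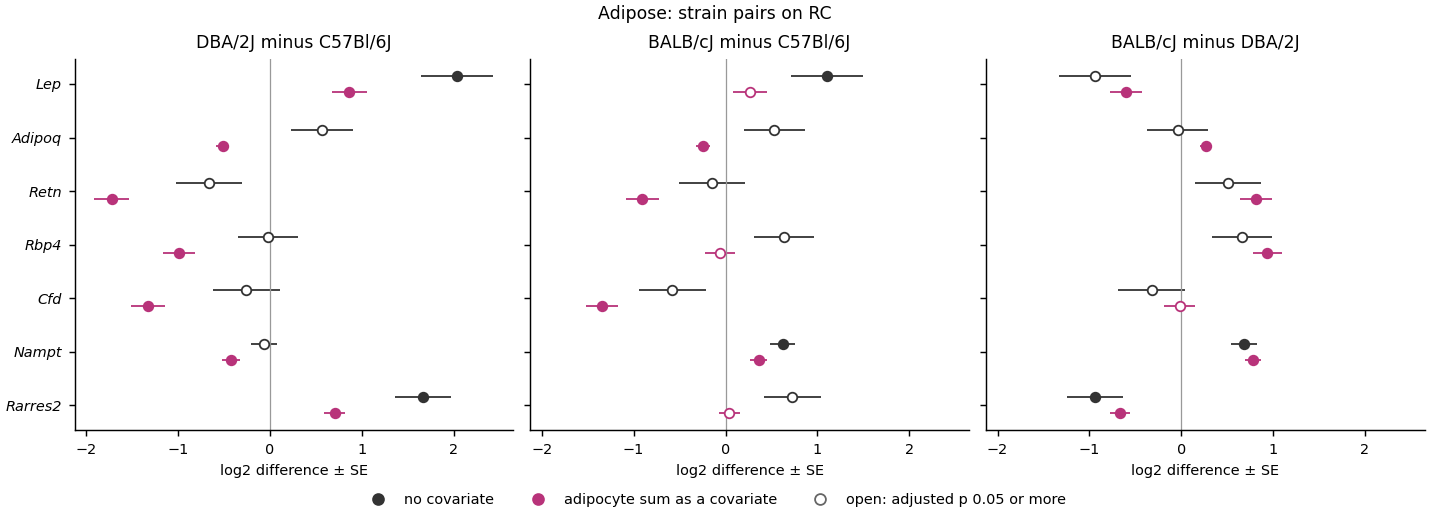
Log2 difference (± SE) between strains in chow-fed animals for each adipokine in visceral fat, without a covariate and with the adipocyte sum as a covariate; filled points have an adjusted p under 0.05. Retn and Cfd lie further below 0 for DBA/2J minus C57Bl/6J with the covariate (-1.72 and -1.33), while Lep moves from 2.04 without it to 0.86 with it and stays filled.

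Between days of sampling, no adipokine of fat passed the threshold when composition was left as it was. On RC, 0 of the 7 passed by limma for day 13 minus 5 (0.0302% of genes did), day 33 minus 5 (0.0242%) or day 33 minus 13 (0.345%). Unadjusted p was under 0.05 for 0, 0 and 1 of the 7, against 314, 1360 and 3135 genes. On HFD, 0 of the 7 passed for day 13 minus 5 (0.532% of genes), day 33 minus 5 (0.212%) or day 33 minus 13 (0.0484%). Unadjusted p was under 0.05 for 1, 2 and 1 of the 7, against 1544, 1013 and 588 genes. Voom called 0 of the 7 in all 6 comparisons. With the adipocyte sum as a covariate Retn was lower at day 33 than at day 5 on both diets, by -0.85 ± 0.18 on HFD (adjusted p = 0.0043) and -0.83 ± 0.17 on RC (0.021). On HFD 3 of the 7 passed for day 33 minus 5 against 2.24% of genes, Retn with Nampt (-0.44 ± 0.09, 0.004) and Rarres2 (0.41 ± 0.11, 0.035). For day 13 minus 5 on HFD 2 of the 7 passed against 4.17% of genes, Retn (-0.78 ± 0.18, 0.0072) and Rarres2 (0.54 ± 0.11, 0.0028). For day 33 minus 13 on HFD 0 did against 0.193%, with 1 of the 7 and 1231 genes at an unadjusted p under 0.05. On RC Retn was the 1 adipokine past the threshold for day 33 minus 5 against 0.0786% of genes. For day 13 minus 5 (0.0242%) and day 33 minus 13 (0.0665%) 0 passed. Unadjusted p was under 0.05 there for 1 and 3 of the 7, against 801 and 1616 genes.

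Of the genes that act with the adipokines, 1 passed the threshold for diet in fat when composition was left as it was, against 3.59% of all genes. Over all strains and days, none of 14 receptors and binding partners, 8 genes of leptin signalling and its feedback, 6 genes of adiponectin folding and secretion, 8 of the alternative complement pathway, 11 of NAD salvage and use, 10 adipocyte transcription factors or 28 other secreted factors of fat passed. Of 9 retinoid-handling genes 1 was higher, Rdh10, a retinol dehydrogenase, by 0.19 ± 0.05 (adjusted p = 0.010). With the adipocyte sum as a covariate, where 19.1% of all genes passed, 4 of 14 receptors and 3 of 11 genes of NAD salvage and use did. Of the receptors 1 was higher on HFD (Ccrl2, which binds chemerin without signalling, 0.28) and 3 were lower (Stra6, which takes up retinol from Rbp4, -0.48; Cmklr1, the chemerin receptor, -0.28; and Adipor1, -0.07). In that fit NAD salvage and use had 2 higher (Nnmt 0.37 and Sirt1 0.16) and 1 lower (Nmnat3 -0.19) of 11, and the transcription factors had 1 higher of 10 (Cebpb, 0.29 ± 0.07, 0.0034). The other secreted factors had 1 higher (Npr3, 0.41) and 2 lower (Nrg4 -0.30 and Grn -0.14) of 28. Without the covariate the median difference was between -0.06 (transcription factors) and 0.07 (adiponectin folding) over these lists, and 0.01 over all tested genes.

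Between chow-fed strains more genes of these lists passed, as did more of all genes. For DBA/2J minus C57Bl/6J, where 51.4% of all genes passed without a covariate and 21.6% with the adipocyte sum, the other secreted factors had 16 higher and 0 lower of 28 without a covariate, with a median difference of 0.97 against 0.05 over all tested genes, and 7 higher and 3 lower with the adipocyte sum, with a median of 0.31. Leptin signalling and its feedback had 0 higher and 5 lower of 8 without the covariate (median -0.48) and 0 and 2 with it (median -0.08). For BALB/cJ minus DBA/2J, where 24.8% of all genes passed without the covariate and 37.6% with it, the other secreted factors had 0 higher and 17 lower without the covariate (median -1.02, against -0.01 over all genes) and 2 and 18 with it (median -0.80). For BALB/cJ minus C57Bl/6J, where 16% and 35.4% passed, they had 3 higher and 1 lower without it (median -0.07) and 1 and 12 with it (median -0.38), and the transcription factors had 1 and 0 without it and 0 and 6 with it. Pparg and Cebpa stand both in the transcription factor list and in the adipocyte sum.

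Over the 70 fat libraries, each adipokine had genes whose deviations from group means followed its own closely. Adipoq was most like Pla2g16, Prnp and Cidec (r = 0.98 for each), of which Pla2g16 is an adipocyte phospholipase and Cidec coats lipid droplets. Cfd was most like Gsn, Serpina3c and Cidec (0.92 each), and Lep like Fads3, Cdc42ep4 and Anxa2 (0.94 each). Rarres2 was most like Htra1, Sgce and Anxa5 (0.97 each), Rbp4 like Sardh, Echdc2 and Nudt7 (0.94 to 0.95), Retn like Fbxl4, Gtf2h5 and Hebp1 (0.92 to 0.93), and Nampt like Plpp6, Opa1 and Chchd3 (0.87 to 0.88). These r are across libraries that fall into the lymphoid classes. Within the 30 lymphoid-low libraries alone they were lower for each of these genes, for example 0.81 for Pla2g16 with Adipoq and 0.34 for Chchd3 with Nampt. Since these genes were picked for the highest r over the 70, a lower r in a part of them follows in part from the picking. The genes most like each adipokine in lymphoid-low libraries were others. Their r ran from 0.79 (Cib2 with Rbp4) to 0.93 (Itgb1bp1 with Adipoq and Lpl with Retn).

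In liver, Rbp4 was the abundant member. It averaged 2502 RPKM on HFD and 2591 on RC (n = 36 each), followed by Rarres2 at 127 and 131 and Nampt at 15.97 and 20.03, with Cfd, Adipoq and Retn at 2.17, 0.745 and 0.203 on HFD and 4.23, 2.22 and 0.564 on RC. All 5 hepatocyte markers were measured in the liver table. Rbp4 did not differ past the threshold with diet (-0.05 ± 0.04, adjusted p = 0.51). Adipoq had a median of 10.5 reads per library on HFD (0 to 143) and 16 on RC (0 to 676), Retn had 0 reads in 12 HFD and 9 RC libraries, and Cfd had medians of 25 (0 to 385) and 31.5 (0 to 718). These 3 moved together across the 72 livers, with r of 0.91 for Adipoq with Retn (rho = 0.90), 0.83 for Adipoq with Cfd (0.85) and 0.76 for Cfd with Retn (0.76), each with an adjusted permutation p of 2.1e-05. Without the 2 farthest livers r was 0.89 for Adipoq with Retn and 0.72 for Cfd with Retn. Their source in these livers was not tested.

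Nampt was the adipokine that changed with diet in liver, and it was lower on HFD in DBA/2J and BALB/cJ. In DBA/2J at day 33 it stood at 5.36, 5.45, 5.71 and 5.98 log2 CPM on HFD and 6.66, 6.92, 7.29 and 7.34 on RC, with no overlap. At day 5 it was 5.40, 5.56, 5.57 and 6.23 on HFD and 5.77, 6.07, 6.23 and 6.73 on RC, and at day 13 it was 5.52, 5.84, 6.28 and 7.05 on HFD and 6.45, 6.64, 6.69 and 6.86 on RC. Both of these days overlapped. In BALB/cJ at day 33 it was 4.95, 5.23, 5.66 and 6.50 on HFD and 6.52, 6.54, 7.18 and 7.41 on RC, again without overlap, while at day 5 it was 6.75 to 7.51 on HFD and 7.05 to 7.78 on RC, and at day 13 it was 5.19 to 6.99 on HFD and 5.70 to 6.03 on RC.

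Over all strains and days liver Nampt differed by -0.38 ± 0.10 (adjusted p = 0.0033), the 1 of 6 members to pass, against 21.2% of genes. In DBA/2J it differed by -0.81 ± 0.17 (0.00031; 1 of 6 members, 21.6% of genes), in BALB/cJ by -0.56 ± 0.17 (0.02; 1 of 6, 14.8%) and in C57Bl/6J by 0.22 ± 0.17 (0.67; 0 of 6 and 0 at an unadjusted p under 0.05, 2.31%). The diet effect differed between strains (F test, adjusted p = 0.0046; 1 of 6 members, 15.7% of genes), with DBA/2J minus C57Bl/6J at -1.03 ± 0.24 (0.0029) and BALB/cJ minus C57Bl/6J at -0.78 ± 0.24 (0.052). On chow, BALB/cJ minus C57Bl/6J was 0.45 ± 0.17 for Nampt (0.027) and -0.19 ± 0.08 for Rarres2 (0.04), which made 2 of 6 members against 46.8% of genes. The Nampt call was lost without 1RC251, 1RC254, 3RC203 or 3RC208 (adjusted p up to 0.062), and the Rarres2 call without any one of 10 animals (1RC211, 1RC227, 1RC228, 1RC235, 3RC202, 3RC203, 3RC208, 3RC209, 3RC228 and 3RC255; adjusted p up to 0.129). DBA/2J minus C57Bl/6J (48.1% of genes) and BALB/cJ minus DBA/2J (42.1%) passed for 0 of 6 members by limma. Unadjusted p was under 0.05 for 1 of 6 in each, against 6748 and 6124 genes.

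In soleus muscle, Cfd, Nampt and Adipoq were the most abundant members. Cfd averaged 99.0 RPKM on HFD and 87.1 on RC, Nampt 42.5 and 45.7, and Adipoq 28.2 and 18.9 (n = 36 each). Rbp4 averaged 9.42 RPKM on HFD and 24.2 on RC, Rarres2 7.56 and 7.20, Retn 6.03 and 4.57, and Lep 4.36 and 2.21. Adipoq, Cfd, Lep and Retn followed Plin1, the lipid-droplet coat protein of adipocytes, across the 72 muscles, with r of 0.94, 0.92, 0.92 and 0.84 as deviations from group means, rho of 0.94, 0.90, 0.86 and 0.86, and r of 0.82 to 0.93 without the 2 muscles farthest from the median. Each of these had a permutation p of 1e-05, the smallest that 100000 permutations can give, and an adjusted p of 2.1e-05 over 17 relations. Rarres2 had a lower r with Plin1, 0.59 (rho = 0.54, adjusted p = 0.00019, and r = 0.51 without the 2 farthest muscles), Nampt did not pass (r = -0.31, 0.073) and neither did Rbp4 (r = 0.15). Rbp4 followed the sum of 5 hepatocyte markers (r = 0.90, rho = 0.88, and r = 0.89 without the 2 muscles farthest from the median), and Rarres2 passed with that sum as well (r = 0.45, rho = 0.50, adjusted p = 0.00048). The sum was 1.02 to 1195 CPM on HFD (median 11.3) and 0.76 to 7163 CPM on RC (median 68.97). Its part in the Rbp4 level was not tested beyond these values.

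Lep was higher and Nampt lower in muscle on HFD. Lep averaged 3.60 ± 1.40 log2 CPM on HFD and 2.28 ± 1.18 on RC in DBA/2J, 3.41 ± 0.82 and 2.87 ± 1.03 in BALB/cJ, and 3.00 ± 0.83 and 2.29 ± 1.30 in C57Bl/6J (SD, n = 12 each), with overlap in each strain. Over all strains and days the difference was 0.86 ± 0.24 (adjusted p = 0.0094), and for Nampt it was -0.10 ± 0.03 (0.032), so 2 of 7 members passed against 17.4% of genes. Plin1 was also higher on HFD, by 0.62 ± 0.20 (0.024), and with Plin1 as a covariate Lep differed by 0.17 ± 0.11 (0.32), Nampt by -0.07 (0.21) and Cfd by -0.29 ± 0.09 (0.03).

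By strain, DBA/2J passed for Lep (1.32 ± 0.42, adjusted p = 0.035) and Nampt (-0.18 ± 0.06, 0.03), 2 of 7 members against 8.73% of genes. BALB/cJ passed for Nampt (-0.17 ± 0.06, 0.041), 1 of 7 against 11.5%, and C57Bl/6J for 0 of 7, with 0 at an unadjusted p under 0.05, against 5.75%. The DBA/2J animal 2HF201 had the highest muscle Lep, 7.10 log2 CPM, with Adipoq at 7.55. Without it the DBA/2J Lep difference missed the threshold, as it did without any one of 10 other animals (2HF208, 2HF209, 2HF230, 2HF231, 2RC200, 2RC203, 2RC208, 2RC209, 2RC230 and 2RC231), with differences of 1.02 to 1.27 and adjusted p of up to 0.094. The Nampt call in DBA/2J was lost without 2HF201, 2HF208, 2RC200, 2RC203, 2RC208 or 2RC231 (up to 0.087), and that in BALB/cJ without any one of 14 animals (3HF203, 3HF224, 3HF228, 3HF230, 3HF256, 3HF259, 3RC201, 3RC202, 3RC203, 3RC208, 3RC209, 3RC211, 3RC228 and 3RC252; up to 0.088). The F test of diet effects between strains gave an adjusted p of 0.049 for Nampt, the 1 of 7 to pass against 9.83% of genes, and missed the threshold when any one of 47 of the 72 animals was left out.

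On chow, muscle Retn and Cfd were lowest in DBA/2J. DBA/2J minus C57Bl/6J was -1.89 ± 0.40 for Retn (adjusted p = 0.00011) and -1.31 ± 0.36 for Cfd (0.0027), 2 of 7 members against 37% of genes. BALB/cJ minus DBA/2J was 1.69 ± 0.40 for Retn (0.0005), 1.23 ± 0.36 for Cfd (0.0051), 0.95 ± 0.36 for Adipoq (0.032) and 0.31 ± 0.06 for Nampt (6.6e-06), 4 of 7 against 40.4%. BALB/cJ minus C57Bl/6J was 0.40 ± 0.06 for Nampt (1.8e-08), 1 of 7 against 44.5%. The Adipoq call was lost without any one of 8 animals (2RC200, 2RC203, 2RC208, 2RC209, 2RC231, 3RC203, 3RC255 and 3RC259; adjusted p up to 0.095). With Plin1 as a covariate the Retn difference between DBA/2J and C57Bl/6J was -1.28 ± 0.23 (5.7e-06) and that of Cfd -0.71 ± 0.15 (0.0001).

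**Figure D5:**
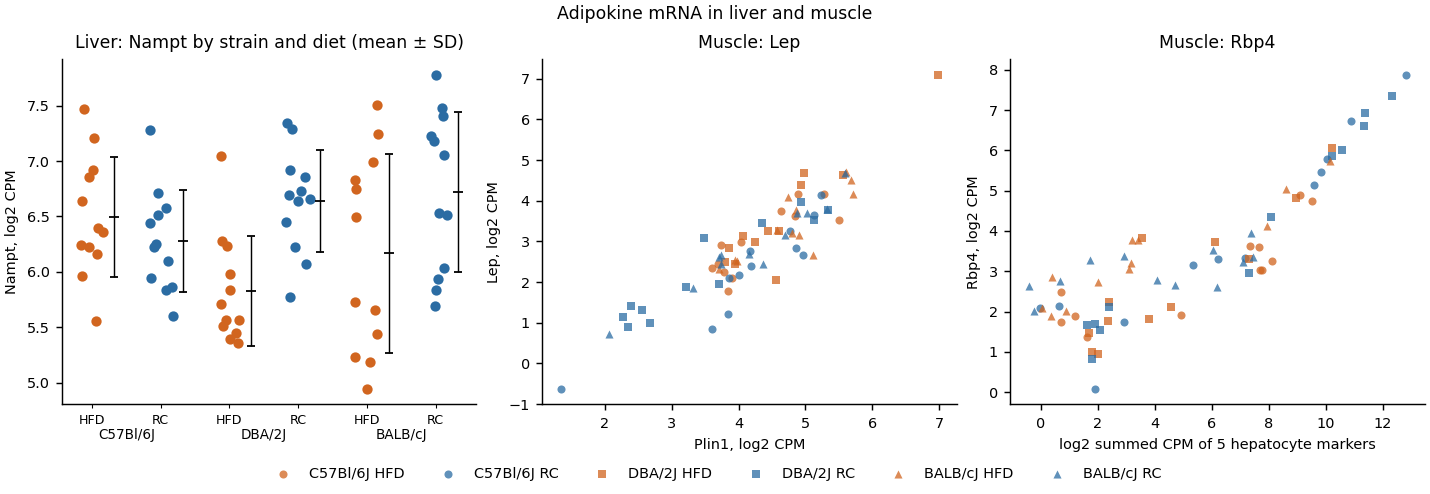
Nampt in liver in log2 CPM by strain and diet with mean ± SD, Lep in muscle against Plin1, and Rbp4 in muscle against the log2 sum of 5 hepatocyte markers, with 1 point per animal. Liver Nampt averages 5.83 on HFD and 6.64 on RC in DBA/2J, muscle Lep is higher where Plin1 is higher (r = 0.92), and muscle Rbp4 is higher where the hepatocyte sum is higher (r = 0.90).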

How the data were processed

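RNA-seq of visceral fat, liver and soleus was analysed in 214 of 224 samples: 70 adipose, 72 liver and 72 muscle libraries. Left out were 2 adipose libraries of islet tissue and 8 liver libraries whose titles end in La or Lb. Polyadenylated RNA was made into stranded libraries and sequenced as single reads, per the labels' protocols. STAR 2.5.3a, edgeR and GRCm38 are named in the submitters' processing notes. The authors deposited log2 CPM (counts scaled to an effective library size, which departs from the read total), 1 table per tissue. The values came out as whole reads in 100% of values under 2000 reads (tolerance 0.05), with 0 reads at -3.81 (adipose), -6.63 (liver) and -3.74 (muscle) log2 CPM.

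From these values 18 group means per tissue were fitted with limma 3.58.1 (R 4.3.3) with a variance trend, on genes at 0 log2 CPM or more in 4 or more animals. Tests were two-sided with Benjamini-Hochberg adjustment over all tested genes and a threshold of 0.05. RPKM used CPM and the merged length of all annotated exons of a gene. Within-class correlations used 100000 permutations, adjusted over 70 relations, and those of liver and muscle were adjusted over 17. The adipocyte sum is the log2 of the summed CPM of 15 markers. The scripts were tested on simulated data.

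Named genes were the 7 adipokines, the genes of each pathway list with the smallest p for diet in fat among those past the threshold (up to 4 a list), and the 3 genes most like each adipokine. Some genes most like an adipokine in lymphoid-low libraries are named as well. The members, lists and markers were chosen with earlier results of these data known. The threshold of 100 CPM for the lymphoid classes, the fits within or with a term for those classes, voom on the recovered reads, the Plin1 and hepatocyte covariates in muscle and the leaving out of muscle 1RC210 were chosen after the data were seen. The labels do not say more of how the 4 animals of a group were housed or processed. The p-values therefore set a difference or relation against the spread between these animals only.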

Additional observations from a re-analysis of the deposited data

Results flagged for a closer look

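Single animals stood apart from the other 3 of their group by Dixon's test in 6 of 112 groups and genes of adipose, 8 of 108 of liver and 9 of 126 of muscle, where chance alone flags about 1 in 20 groups. In adipose, the DBA/2J RC day 13 animal 2RC231 was low for 3 adipokines, Adipoq (9.705 log2 CPM), Rarres2 (7.379) and Rbp4 (5.845), and in liver the same animal had Retn at -4.347. The C57Bl/6J HFD day 33 animal 1HF209, which is lymphoid-low, had Lep at 10.44, the C57Bl/6J HFD day 5 animal 1HF227 had Cfd at 10.81, and the DBA/2J HFD day 5 animal 2HF203 had Retn at 9.906.

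In liver, the DBA/2J RC day 5 animal 2RC200 was high for both Adipoq (4.854) and Retn (2.615). The other livers were 3RC211 for Adipoq (0.6864, BALB/cJ RC day 33), 1RC210 for Cfd (-0.1838, C57Bl/6J RC day 33), 3HF258 for Retn (-6.632, which is 0 reads, BALB/cJ HFD day 33), 3RC251 for Rbp4 (11.76, BALB/cJ RC day 5) and 2RC209 for Rbp4 (12, DBA/2J RC day 33).

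In muscle, 1RC229 (C57Bl/6J RC day 13) stood apart for Adipoq (3.789) and Cfd (5.584), and 3RC255 (BALB/cJ RC day 13) for Lep (4.679) and Rarres2 (4.721). The others were 1RC210 for Cfd (2.949, C57Bl/6J RC day 33), 3HF228 for Lep (4.101, BALB/cJ HFD day 13), 3HF203 for Rarres2 (4.103, BALB/cJ HFD day 5), 1HF231 for Rarres2 (3.826, C57Bl/6J HFD day 13) and 1HF225 for Rbp4 (4.733, C57Bl/6J HFD day 5).

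The diet effect on Nampt differed between strains in liver (limma F test, adjusted p = 0.004576) and in muscle (0.04921). The 2 adipose libraries left out had pancreas marker sums of 4.465e+05 CPM (3HF201) and 6.253e+05 CPM (3HF208).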

How the results depend on the processing

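Of the 7 adipokines in fat, 0 passed for diet over all strains and days. The count was 4 with the B and T cell sum as a covariate, 4 with the adipocyte sum and 4 with a lymphoid class term, 1 in lymphoid-low libraries, 3 in these with the adipocyte sum and 1 in lymphoid-high libraries with it. Within strains 1 of 21 passed, against 0 with only the strain's animals fitted, 0 with all 72 libraries, 2 with the B and T cell sum, 3 with the adipocyte sum and 2 with the class term. By strain and day 1 of 63 passed, against 0, 4, 2, 3 and 2 under those settings. Differences in diet effect between strains, 0 of 7, became 1 with the B and T cell sum and 1 with the class term. Strain pairs on chow, 6 of 21, became 14, 17 and 14 with the B and T cell sum, the adipocyte sum and the class term, and 11 and 10 in lymphoid-low and lymphoid-high libraries with the adipocyte sum. Comparisons of days, 0 on each diet, became 1 on RC with the adipocyte sum, and 4, 5 and 2 on HFD with the B and T cell sum, the adipocyte sum and the class term. Of the 21 member pairs, all 21 passed over the pooled libraries and 11 in lymphoid-low ones. The muscle count for diet, 2, became 1 with the adipocyte sum and 1 with Plin1. The share of all genes that passed in fat moved as well. With the adipocyte sum it went from 3.59% to 19.1% for diet over all strains and days. For BALB/cJ on chow it rose from 16% to 35.4% against C57Bl/6J and from 24.8% to 37.6% against DBA/2J. For DBA/2J minus C57Bl/6J it fell from 51.4% to 21.6%. Whether the adipokine counts changed more than those of all genes was not tested, nor were the causes.

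Replicate numbers were not taken to pair the samples in the main fits. Same-numbered animals correlated above 0.1 in 3 of 18 pairs in adipose, 12 of 20 in liver and 7 of 20 in muscle. The median r was -0.28 in adipose, 0.13 in liver and 0.002 in muscle. Whether same-numbered livers belong together cannot be told from these values. A replicate block uses the same-numbered pairs alone. With it the counts were 0 within strains and 0 by strain and day in adipose, 0 in muscle, and 0 for liver and muscle together in place of 3. The calls lost were Lep in C57Bl/6J fat (1.17, adjusted p = 1), Nampt in BALB/cJ fat at day 33 (-1.41), and over all strains and days Nampt in liver (-0.36, 0.097) and Lep (0.89, 0.097) and Nampt (-0.14, 0.16) in muscle. Nampt in liver kept its call in DBA/2J (-0.64, 0.014) and BALB/cJ (-0.79, 0.01). Nampt in muscle lost it in both (0.11 and 0.21).

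The sign changed for Adipoq between chow-fed DBA/2J and C57Bl/6J (-0.51 with the adipocyte sum, -0.62 and -0.38 with it in lymphoid-low and lymphoid-high libraries), between BALB/cJ and C57Bl/6J (-0.24 with it), and between BALB/cJ and DBA/2J (0.58, 0.27 and 0.59 with the B and T cell sum, the adipocyte sum and the class term, 0.59 in lymphoid-low libraries). It also changed for Lep between BALB/cJ and C57Bl/6J (-0.56 in lymphoid-low libraries with the adipocyte sum), and in muscle with Plin1 for Cfd with diet (-0.29) and Lep between DBA/2J and C57Bl/6J (0.70).

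Leaving out 1 animal at a time gave counts of 0 to 0 for diet over all, 0 to 1 within strains, 0 to 3 by strain and day, 0 to 0 for the differences between strains and between days, 5 to 8 for strain pairs on chow, 0 to 0 for days on either diet, 3 to 4 for diet in liver and muscle together and 3 to 7 there within strains. Omitting the variance trend changed no call, nor did voom or the hepatocyte covariate. Omitting the filter changed none either, but it could hardly do so. The filter kept all 12611 genes of liver, all 13637 of muscle and 16540 of 16542 of adipose. Quantile normalization gained 6 calls. A stricter filter, on the median of the mean levels, gained 3 calls and lost 1. Leaving out libraries over 4 times the median of a marker sum removed none. edgeR and DESeq2 were not run, since the deposited values are log2 CPM.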
